A study of Mus musculus with 9 samples.

Results

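The deposited gene table holds 37 genes of the mouse mitochondrial genome among 28998 genes in all. They were taken by their symbol alone, which begins with mt-, and no measured value entered the choice. They comprise 13 protein-coding genes, 2 rRNA genes and 22 tRNA genes. RNA was sequenced from mouse bone marrow-derived macrophages in 3 libraries of WGFT17 cells, 3 libraries of JHU083 cells and 3 libraries of Control cells. Monocytes from the marrow of c57 mice were differentiated with GM-CSF for 7 days, drugs were then added for 36 hours, and every group is labelled with the genotype WT. JHU083 is a prodrug of the glutamine antagonist DON. WGFT17 is a code name, T17 in the title of the series, for which the labels give no structure or target. Neither the doses nor what Control cells received are given in the labels, which also call the cell type an adherent cell line. They do not say whether the libraries of a group came from separate cultures or animals, so each p-value reflects the spread among these libraries alone, and that spread may be technical.

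Mitochondrial DNA is transcribed from both strands by the nuclear-encoded polymerase Polrmt into long precursors that cover many genes. tRNA genes lie between most of the rRNA and protein-coding genes, and the cuts made at their ends by RNase P and Elac2 release the RNAs on either side. The rRNAs form the mitochondrial ribosome, which translates the mitochondrial mRNAs into core subunits of complexes I, III and IV and of ATP synthase, while all other subunits are encoded in the nucleus. Most mitochondrial mRNAs carry short poly(A) tails. In macrophages, respiration is known to shift with the state of activation.

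Libraries were made from RNA selected in 2 rounds on oligo(dT) and read as pairs of 150 bases from inserts of about 300 bases. Values of the rRNA genes therefore cover only rRNA captured in that selection. The level of an rRNA or mRNA and its capture in that selection cannot be told apart here. Mitochondrial tRNA genes are 59 to 75 bases long, so a tRNA value here is the read coverage over that gene, and mature tRNAs cannot be told apart from longer precursors that include them. The library method marks the strand, but the sources used here do not say whether reads were counted by strand. Without strand, reads of mt-Nd6 and of the 8 tRNA genes on the minus strand cannot be told apart from reads of the precursor of the plus strand that runs across them. Nuclear copies of mitochondrial sequence can also share reads with these genes, and how such reads were counted is not stated. In RNA from whole cultures, fewer cells of a type and less RNA per cell cannot be told apart.

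Summed counts per library ranged from 56624220 to 69112134. They are coverage-derived estimates in which 1 read pair gives about 4 counts, that is about 14200000 to 17300000 read pairs. Macrophage markers (Adgre1, Csf1r, Cd68, Lyz2 and 4 others) had a summed CPM, a count scaled to a common library size, of 17290 to 19240 in WGFT17, 18280 to 19540 in JHU083 and 17300 to 18660 in Control, and none was at 0 in any library. By photoreceptor transcripts, JHU083 replicate 3 stood apart from the other JHU083 libraries. Photoreceptor transcripts summed to 3.79 to 4.44 CPM in WGFT17 libraries, to 5.74, 5.50 and 42.7 in JHU083 replicates 1, 2 and 3, and to 38.2 to 46.1 in Control libraries. Between 7 and 9 of the 13 photoreceptor markers listed were at 0 in WGFT17 libraries, 3 to 9 in JHU083 and 2 or 3 in Control. Heart muscle markers summed to at most 19.0 CPM in WGFT17, to 238, 1.79 and 378 in JHU083 replicates 1, 2 and 3 and to 313 to 358 in Control. By these markers JHU083 replicate 2 was the low library and replicate 1 lay nearer to Control, so they divide the JHU083 libraries otherwise than the photoreceptor transcripts do. The number at 0 of 16 was 10 to 12 in WGFT17, 0 to 9 in JHU083 and 1 in Control. Stromal markers summed to 2527 to 2689 CPM in WGFT17, 9869 to 11390 in JHU083 and 15010 to 16070 in Control. Neutrophil markers summed to 0.978 to 1.78 CPM in WGFT17, 11.8 to 14.0 in JHU083 and 46.0 to 52.8 in Control, with 3 to 5 of 8 at 0 in WGFT17 libraries. Dendritic cell markers summed to 115 to 134 CPM in WGFT17, 367 to 405 in JHU083 and 368 to 532 in Control, and liver markers to 847 to 1285 in WGFT17, 1336 to 1805 in JHU083 and 2543 to 2712 in Control. Their part in the results below was not tested, and results that rest on JHU083 replicate 3 are given with and without it.

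Mitochondrial mRNAs made up a smaller share of the counts in WGFT17 cells than in JHU083 or Control cells, while mitochondrial rRNA made up a larger share. The 13 protein-coding genes took 1.63%, 1.54% and 1.47% of all counts in WGFT17 libraries, 2.15%, 2.06% and 2.91% in JHU083 libraries and 2.52%, 2.49% and 2.47% in Control libraries. Every WGFT17 library was below every library of the other groups, and JHU083 replicate 3 was the highest of all. The mean share was 1.55% ± 0.0803 in WGFT17, 2.37% ± 0.464 in JHU083 and 2.49% ± 0.0220 in Control (SD, n = 3 each). It was 1.61-fold lower in WGFT17 than in Control (log2 -0.69) and 1.51-fold lower than in JHU083 (log2 -0.60). JHU083 and Control overlapped, with a log2 difference of -0.09, which became -0.25 without JHU083 replicate 3.

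Relative to the mRNAs, mitochondrial rRNA separated WGFT17 from the other groups. There were 5.38, 5.81 and 5.82 rRNA counts per 100 protein-coding counts in WGFT17 libraries, 1.56, 1.26 and 1.47 in JHU083 libraries and 1.44, 1.54 and 1.58 in Control libraries. The WGFT17 values lay far above the others, and JHU083 and Control overlapped. The ratio was 3.73-fold higher in WGFT17 than in Control and 3.98-fold higher than in JHU083. The tRNA genes gave 0.442, 0.474 and 0.441 counts per 100 protein-coding counts in WGFT17, 0.325, 0.317 and 0.322 in JHU083 and 0.368, 0.379 and 0.403 in Control. Here no pair of groups overlapped, with WGFT17 highest and JHU083 lowest. The tRNA ratio was 1.18-fold higher in WGFT17 than in Control, 1.41-fold higher in WGFT17 than in JHU083, and 1.19-fold lower in JHU083 than in Control. As a share of all counts, however, the tRNA genes took less in WGFT17 (0.00649% to 0.00730%) than in Control (0.00925% to 0.00996%). JHU083 (0.00654% to 0.00934%) overlapped with both. The ratio to mRNA was thus higher in WGFT17 than in Control while the tRNA share itself was lower. These sums over members carry no test.

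**Figure D1:**
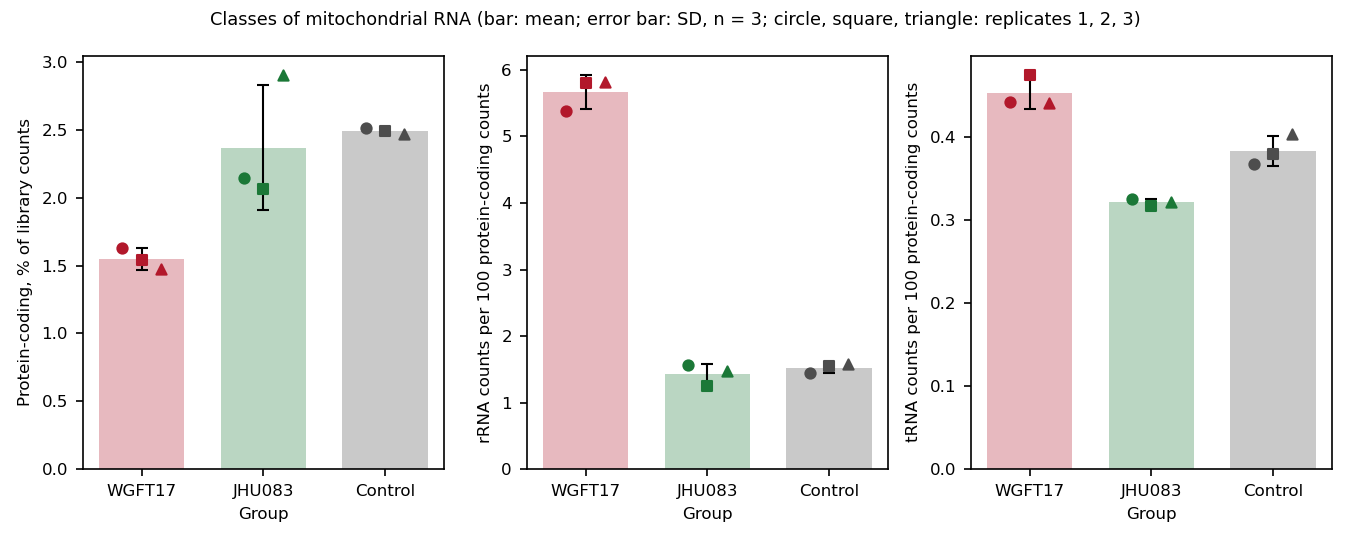
Share of counts on mitochondrial protein-coding genes (left, percent of all counts), and rRNA (middle) and tRNA (right) counts per 100 protein-coding counts, for WGFT17, JHU083 and Control. Bars are means, error bars SD (n = 3) and symbols libraries: WGFT17 is lowest in the left panel and highest in the other 2, and JHU083 replicate 3 is the highest symbol on the left.

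Gene by gene, all 37 members had a mean FPKM of at least 1, the minimum for testing among 11798 genes. FPKM is the number of fragments scaled for the length of the transcript and the depth of the library. mt-Tv passed that minimum only through the WGFT17 libraries, with a mean of 1.45 FPKM over the 9 libraries and 0.770 without them. A gene is called higher or lower at an adjusted p under 0.05 in edgeR's quasi-likelihood test with Benjamini-Hochberg adjustment over all tested genes. In WGFT17 against Control, 13 members were higher, 15 were lower and the other 9 did not pass, where 58% of all tested genes were called, 28% higher and 30% lower. The WGFT17 and Control libraries did not overlap for 33 members, 15 of them higher and 18 lower. Of all tested genes 73.2% did not overlap, 45% higher and 28.2% lower. By class, 2 of 2 rRNA genes were higher, 1 protein-coding gene was higher and 10 were lower of 13, and 10 tRNA genes were higher and 5 lower of 22. Without mt-Tv the higher members numbered 12 of 36, with 9 of 21 among the tRNA genes. The median log2 change was 1.24 for the rRNA genes, -0.63 for the protein-coding genes and 0.61 for the tRNA genes (0.56 without mt-Tv), against 0.00 over all tested genes. In WGFT17 against JHU083, 13 members were higher, 10 were lower and the other 14 did not pass, where 44.7% of all tested genes were called, 20.4% higher and 24.4% lower. The WGFT17 and JHU083 libraries did not overlap for 26 members, 16 of them higher, where 53.4% of all tested genes did not overlap and 27.4% were higher in that way. That comparison had both rRNA genes higher, 1 protein-coding gene higher and 9 lower, and 10 tRNA genes higher and 1 lower, or 9 higher and 1 lower without mt-Tv. Without mt-Tv the higher members there numbered 12 of 36. In JHU083 against Control, no member was higher, 6 were lower and the other 31 did not pass, where 24% of all tested genes were called, 11.5% higher and 12.5% lower. At an unadjusted p under 0.05 the same test had 1 member higher and 11 lower, DESeq2 called none higher and 7 lower, and limma called 3 higher and 7 lower. Of the 11798 genes tested, DESeq2 called 3373 and limma, on log2(FPKM + 1), 3527, against 2831 by edgeR. The JHU083 and Control libraries did not overlap for 9 members, 2 of them higher and 7 lower. Of all tested genes 43.7% did not overlap, 31.3% higher and 12.4% lower. The comparisons share libraries, so their values are set side by side and are not independent.

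**Figure D2:**
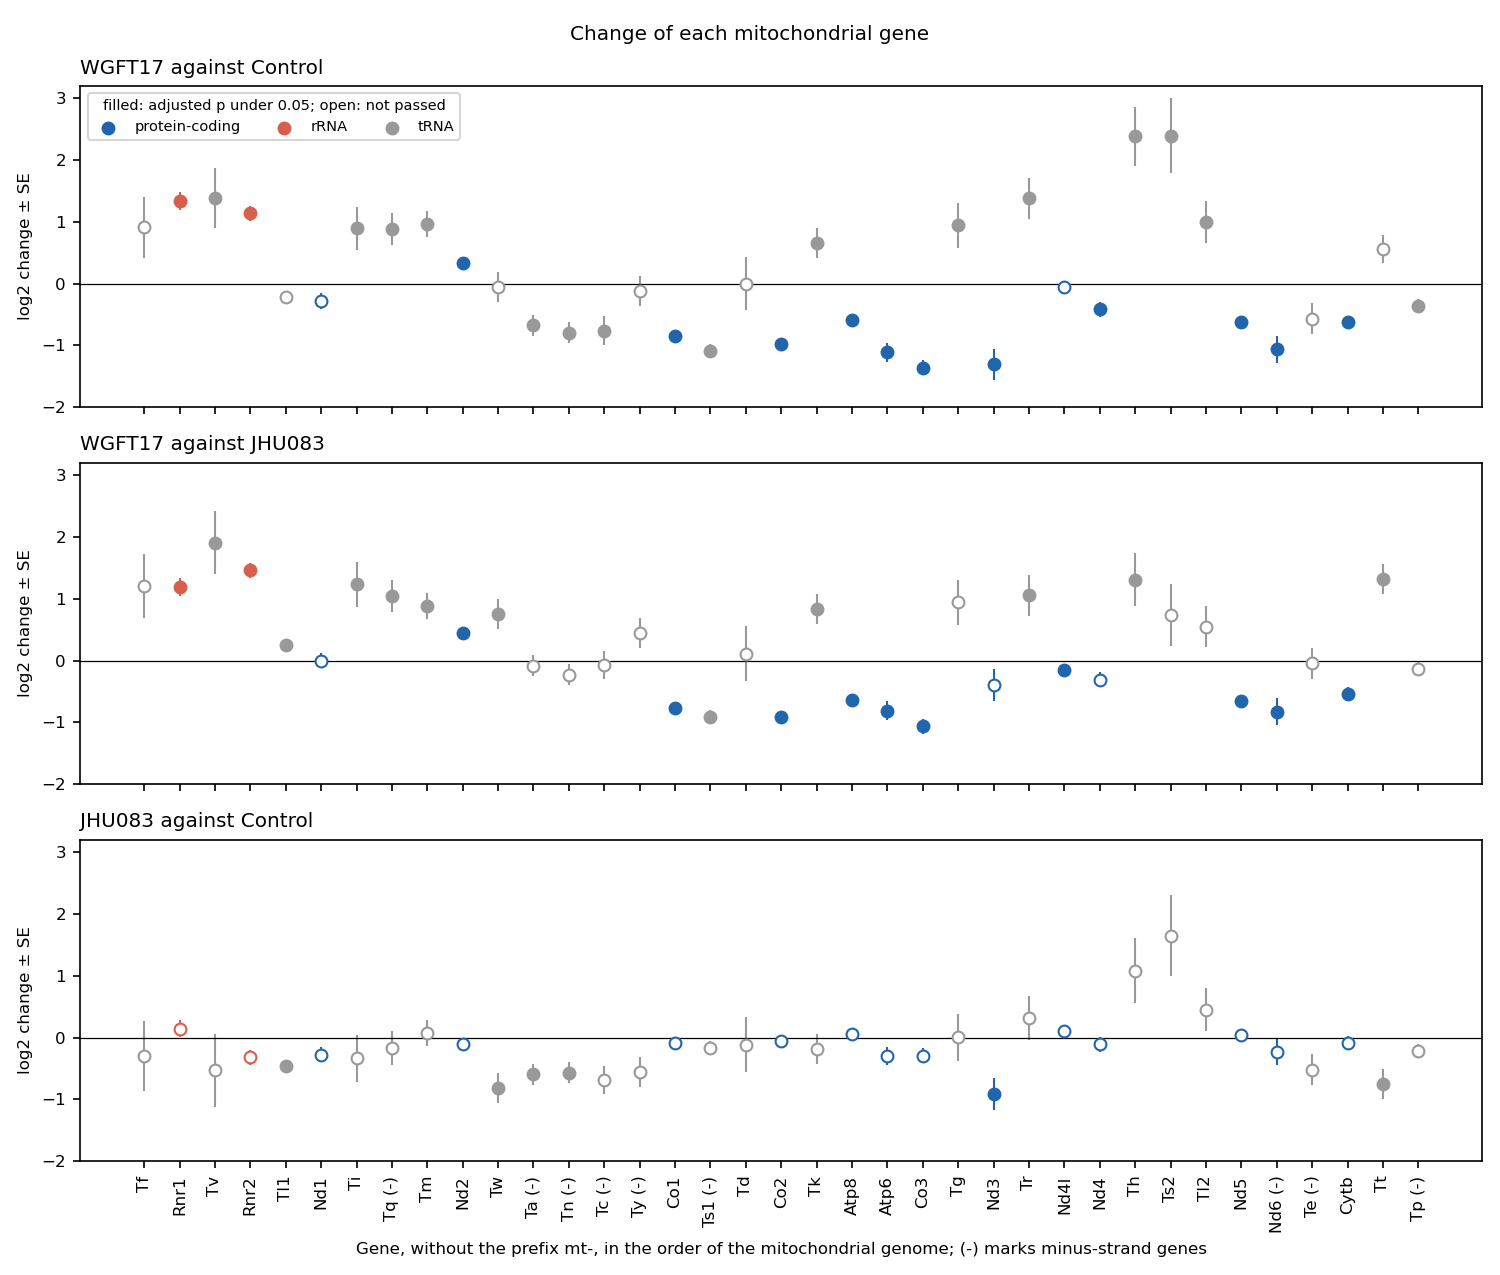
Log2 change with its SE for the 37 genes in their order along the mitochondrial genome, for WGFT17 against Control (top), WGFT17 against JHU083 (middle) and JHU083 against Control (bottom). Filled symbols passed the test: in the upper 2 panels both rRNA genes and mt-Nd2 lie above 0 and the genes of complex IV and ATP synthase below it.

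The rRNA genes come first along the precursor of the plus strand. mt-Rnr1 (chrM:70-1024, GRCm38, plus strand), the RNA of the small ribosomal subunit, had 235, 225 and 225 FPKM in WGFT17, 99.9, 73.6 and 123 FPKM in JHU083 and 77.4, 89.0 and 85.0 FPKM in Control. All WGFT17 libraries were above all others, and JHU083 libraries lay on both sides of Control. mt-Rnr1 was 2.52-fold higher in WGFT17 than in Control (log2 1.34 ± 0.14 SE, edgeR adjusted p = 1.18e-05) and 2.29-fold higher than in JHU083 (log2 1.19 ± 0.14, adjusted p = 3.69e-05). mt-Rnr2 (chrM:1094-2675, plus strand), the RNA of the large subunit, had 379, 397 and 374 FPKM in WGFT17, 138, 109 and 167 FPKM in JHU083 and 155, 163 and 166 FPKM in Control. Again WGFT17 did not overlap with the other groups. It was 2.2-fold higher in WGFT17 than in Control (log2 1.14 ± 0.12, edgeR adjusted p = 1.12e-05) and 2.75-fold higher than in JHU083 (log2 1.46 ± 0.12, adjusted p = 2.03e-06). JHU083 against Control gave log2 0.14 for mt-Rnr1 (edgeR adjusted p = 0.488) and -0.32 for mt-Rnr2 (adjusted p = 0.073), and without JHU083 replicate 3 mt-Rnr2 was lower in JHU083 (log2 -0.49, adjusted p = 0.00156). In both comparisons of WGFT17, both rRNA genes were higher under all 19 alternative settings.

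Complex I subunits are the largest group of mitochondrial mRNAs, with 7 genes, and they moved unevenly. In WGFT17 against Control, 1 of the 7 was higher and 4 were lower, and the median log2 change was -0.42. mt-Nd1 and mt-Nd2 lie next after the rRNA genes. mt-Nd1 (chrM:2751-3707), a core membrane subunit, had 1452, 1357 and 1308 FPKM in WGFT17, 1194, 1172 and 1714 FPKM in JHU083 and 1524, 1565 and 1552 FPKM in Control. WGFT17 was below Control in every library but lay between the JHU083 libraries, of which replicate 3 was far above the others. mt-Nd1 did not pass in WGFT17 against Control (log2 -0.28, edgeR adjusted p = 0.0722) or against JHU083 (log2 -0.00, adjusted p = 0.987), and without JHU083 replicate 3 it was higher in WGFT17 than in JHU083 (log2 0.20, adjusted p = 0.00351). mt-Nd2 (chrM:3914-4951), another core membrane subunit, had 1182, 1141 and 1081 FPKM in WGFT17, 802, 736 and 942 FPKM in JHU083 and 842, 821 and 834 FPKM in Control. It was the sole protein-coding gene whose WGFT17 libraries were all above the other groups. mt-Nd2 rose in WGFT17 by log2 0.34 ± 0.08 over Control (edgeR adjusted p = 0.00447) and by log2 0.44 ± 0.08 over JHU083 (adjusted p = 0.00108), and it was higher under all 19 alternatives in both.

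mt-Nd3 (chrM:9459-9806) was the least abundant of the mitochondrial mRNAs per length, with 97.0, 93.3 and 86.8 FPKM in WGFT17, 92.8, 78.5 and 189 FPKM in JHU083 and 189.8, 218 and 230.0 FPKM in Control. WGFT17 and JHU083 replicates 1 and 2 were low, while JHU083 replicate 3 was just below the Control libraries. mt-Nd3 fell in WGFT17 against Control (log2 -1.31 ± 0.26, edgeR adjusted p = 0.00121) and in JHU083 against Control (log2 -0.92 ± 0.26, adjusted p = 0.0253). Without JHU083 replicate 3 the log2 change in JHU083 against Control was -1.41 (edgeR adjusted p = 1.49e-05), and without JHU083 replicate 2 it was -0.69 (adjusted p = 0.0607). mt-Nd4l (chrM:9877-10173) had 801, 813 and 788 FPKM in WGFT17, 878, 842 and 919.9 FPKM in JHU083 and 819.9, 758 and 726 FPKM in Control. Control libraries lay on both sides of WGFT17, and JHU083 was above both groups. It did not pass in WGFT17 against Control (log2 -0.05, edgeR adjusted p = 0.477) and was slightly lower in WGFT17 than in JHU083 (log2 -0.15, adjusted p = 0.0475), a call held in 6 of 19 alternatives.

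mt-Nd4 (chrM:10167-11544), which shares 7 bases with mt-Nd4l on the same mRNA, had 786, 742 and 702 FPKM in WGFT17, 818, 763 and 1153 FPKM in JHU083 and 949, 916 and 904 FPKM in Control. It fell in WGFT17 against Control (log2 -0.42 ± 0.13, edgeR adjusted p = 0.0151, or 0.0582 without WGFT17 replicate 3) and did not pass against JHU083 (log2 -0.31, adjusted p = 0.0708), where JHU083 replicate 2 lay within the WGFT17 range. mt-Nd5 (chrM:11742-13565) had 701, 647 and 626 FPKM in WGFT17, 932, 911 and 1251 FPKM in JHU083 and 983, 939 and 909 FPKM in Control. WGFT17 was below every library of the other groups. The change was log2 -0.63 ± 0.11 against Control (edgeR adjusted p = 0.000503) and -0.66 ± 0.11 against JHU083 (adjusted p = 0.00044). mt-Nd6 (chrM:13552-14070), the only protein-coding gene on the minus strand, had 396, 357 and 334 FPKM in WGFT17, 498, 461 and 953 FPKM in JHU083 and 693, 686 and 729.6 FPKM in Control. JHU083 replicates 1 and 2 lay between WGFT17 and Control, and replicate 3 was above all Control libraries. mt-Nd6 fell in WGFT17 by log2 1.06 ± 0.22 against Control (edgeR adjusted p = 0.00172) and by 0.83 ± 0.22 against JHU083 (adjusted p = 0.00963). Without JHU083 replicate 3, mt-Nd6 fell by 0.41 against JHU083 (edgeR adjusted p = 0.000476).

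mt-Cytb (chrM:14145-15288) encodes cytochrome b, the only mitochondrially encoded subunit of complex III. It had 1292, 1223 and 1179.6 FPKM in WGFT17, 1657, 1512 and 2144 FPKM in JHU083 and 1833, 1779.8 and 1680.1 FPKM in Control. WGFT17 was again lowest in every library, and JHU083 and Control overlapped. mt-Cytb was lower in WGFT17 by log2 -0.63 ± 0.11 than in Control (edgeR adjusted p = 0.00051) and by -0.54 ± 0.11 than in JHU083 (adjusted p = 0.00183).

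All 3 mitochondrial genes of complex IV, which encode the catalytic core of cytochrome c oxidase, were lower in WGFT17 than in either other group, with a median log2 change of -0.98 against Control and -0.92 against JHU083. mt-Co1 (chrM:5328-6872), the most abundant member in each group, had 3815, 3676 and 3507 FPKM in WGFT17, 5798, 5703 and 7096 FPKM in JHU083 and 6189, 6132 and 6127 FPKM in Control. Its WGFT17 libraries were far below all others. It fell in WGFT17 by log2 0.86 ± 0.08 against Control (edgeR adjusted p = 5.15e-06) and by 0.77 ± 0.08 against JHU083 (adjusted p = 1.48e-05). mt-Co2 (chrM:7013-7696) had 1139, 1048 and 994 FPKM in WGFT17, 1850.2, 1746 and 2366 FPKM in JHU083 and 1963, 2028 and 1844 FPKM in Control, again without overlap of WGFT17 with the others. The log2 change was -0.98 ± 0.10 against Control (edgeR adjusted p = 1.14e-05). mt-Co3 (chrM:8607-9390) had 832, 788 and 715 FPKM in WGFT17, 1463, 1421 and 1962 FPKM in JHU083 and 1718, 1919.5 and 1923 FPKM in Control. Of the 13 mRNAs it had the lowest fitted change in WGFT17, log2 -1.36 ± 0.12 or 2.57-fold lower than in Control (edgeR adjusted p = 2.15e-06) and -1.07 ± 0.12 against JHU083 (adjusted p = 1.85e-05), although mt-Nd3 lay within 1 SE of it against Control.

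The ATP synthase genes mt-Atp8 (chrM:7766-7969) and mt-Atp6 (chrM:7927-8607) share 43 bases of the same mRNA and encode membrane subunits, of which Atp6 forms the proton channel. mt-Atp8 had 1697, 1545 and 1479 FPKM in WGFT17, 2426, 2310.1 and 2539 FPKM in JHU083 and 2119, 2338 and 2115 FPKM in Control. mt-Atp6 had 1027, 941 and 896 FPKM in WGFT17, 1440.2, 1342 and 2194 FPKM in JHU083 and 1909, 1963 and 1877 FPKM in Control. For both genes every WGFT17 library was below every other library. Against Control, mt-Atp8 fell in WGFT17 by log2 0.59 ± 0.07 (edgeR adjusted p = 1.77e-05) and mt-Atp6 by log2 1.11 ± 0.15 (adjusted p = 8.68e-05). Against JHU083, mt-Atp8 fell by log2 0.64 ± 0.07 (edgeR adjusted p = 1.12e-05) and mt-Atp6 by 0.81 ± 0.15 (adjusted p = 0.00108).

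**Figure D3:**
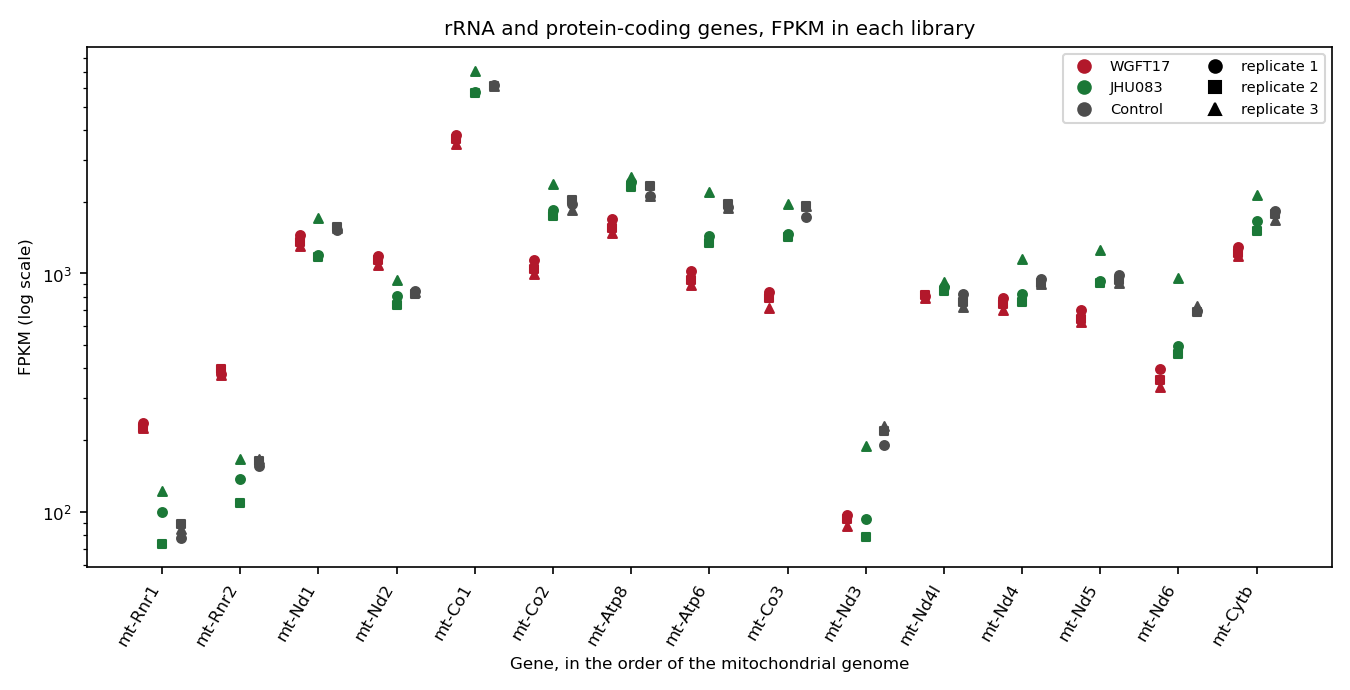
FPKM on a log scale of the 2 rRNA and 13 protein-coding genes in each library, in genome order, with WGFT17, JHU083 and Control side by side and a symbol per replicate. WGFT17 symbols lie above the others for mt-Rnr1, mt-Rnr2 and mt-Nd2 and below them for the genes of complex IV and ATP synthase, and JHU083 replicate 3 stands above JHU083 replicates 1 and 2 for most mRNAs.

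Some of these calls depended on which libraries were set against each other. WGFT17 libraries and JHU083 replicates 1 and 2 carried few photoreceptor transcripts, whereas JHU083 replicate 3 and all Control libraries carried them. With a term for that split, comparisons with Control rest on JHU083 replicate 3, the only library outside Control with such transcripts. The members called in WGFT17 against Control were then 15, of which 9 were higher and 6 lower, where 44% of all tested genes were called. Both rRNA genes were then higher in WGFT17 (log2 1.85 for mt-Rnr1 and 1.59 for mt-Rnr2), as was mt-Nd2 (0.64), and all 3 genes of complex IV and both of ATP synthase were lower. The changes of mt-Nd3 (-0.16), mt-Nd5 (-0.17), mt-Nd6 (-0.06) and mt-Cytb (-0.18) no longer passed, mt-Nd4 turned to 0.14 without passing (edgeR adjusted p = 0.21), and mt-Nd1 turned to 0.27 and passed (adjusted p = 0.013). In WGFT17 against JHU083, leaving out JHU083 replicate 3 gave 26 called members, 17 higher and 9 lower, where 48.4% of all tested genes were called.

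Ratios between mitochondrial mRNAs followed the same split of libraries for several pairs of genes. These ratios were chosen after the values were seen and are given as a description. The FPKM ratio of mt-Atp8 to mt-Atp6 was 1.64 to 1.72 in the 5 libraries with few photoreceptor transcripts, which are the WGFT17 libraries and JHU083 replicates 1 and 2, and 1.11 to 1.19 in the other 4. The ratio of mt-Nd4l to mt-Nd4 was 1.02 to 1.12 in the 5 libraries and 0.798 to 0.864 in the other 4. Both of these pairs lie on a shared mRNA, and the shorter gene of each pair was relatively higher in the 5 libraries. The ratio of mt-Nd5 to mt-Nd6, which overlap by 14 bases on opposite strands, was 1.77 to 1.97 in the 5 libraries and 1.25 to 1.42 in the other 4. For mt-Nd1 to mt-Nd2 it was 1.19 to 1.59 in the 5 libraries and 1.81 to 1.91 in the other 4, and for mt-Co3 to mt-Co1 it was 0.204 to 0.252 in the 5 and 0.277 to 0.314 in the other 4. Within the 5 libraries these last ratios also separated WGFT17 from JHU083. mt-Nd1 to mt-Nd2 was 1.19 to 1.23 in WGFT17 and 1.49 and 1.59 in JHU083 replicates 1 and 2. mt-Co3 to mt-Co1 was 0.204 to 0.218 in WGFT17 and 0.252 and 0.249 in those JHU083 replicates. By contrast the ratio of mt-Rnr2 to mt-Rnr1 overlapped between the 5 (1.38 to 1.77) and the 4 libraries (1.36 to 2.01).

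**Figure D4:**
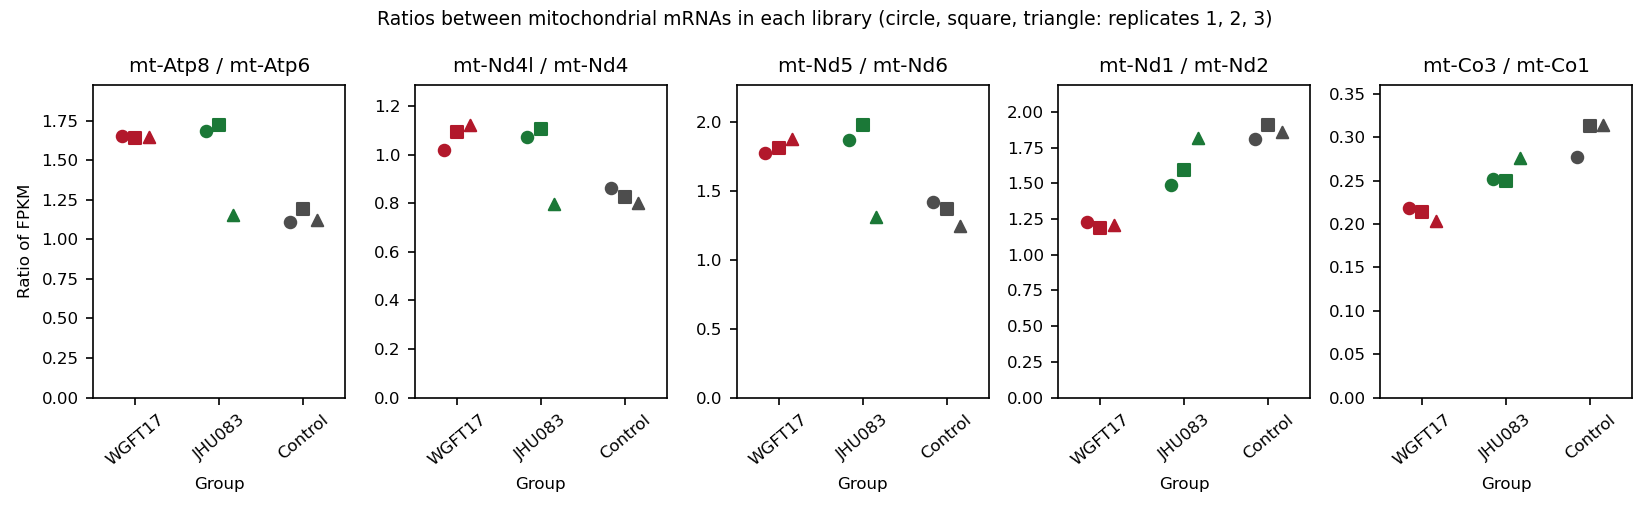
FPKM ratios of 5 pairs of mitochondrial mRNAs in each library, grouped as WGFT17, JHU083 and Control, with a symbol per replicate and axes from 0. In each panel JHU083 replicate 3 (triangle) lies with the Control libraries or next to them, and a gap without symbols separates these 4 libraries from WGFT17 and JHU083 replicates 1 and 2.

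In WGFT17 against Control the tRNA genes differed both by strand and by level. Of the 14 on the plus strand, 9 were higher in WGFT17 than in Control and none was lower in edgeR's test (10 and 1 at an unadjusted p under 0.05). Their median log2 change was 0.93. Without mt-Tv, 8 of 13 were higher, with a median of 0.91. Of the 8 on the minus strand, 1 was higher and 5 were lower, and the median was -0.62. Split instead by the mean FPKM over all libraries, at a level of 20 chosen after the values were seen, 9 of 12 tRNA genes below it were higher and none was lower by edgeR (10 and 0 at an unadjusted p under 0.05), leaving out mt-Tv. Of the 9 tRNA genes at or above that level, edgeR called none higher and 5 lower (0 and 7 at an unadjusted p under 0.05), with a median of -0.57. The parts of strand and level were not tested. Over all tRNA genes, mt-Tv included, the main edgeR fit called 10 higher and 5 lower. These counts moved with the method. With the counts divided by 4, because a read pair gives about 4 counts, 6 were higher and 5 lower. DESeq2 called 5 higher and 6 lower, and edgeR with a replicate block called 5 and 5. Limma called 12 higher and 5 lower, and edgeR with only the groups compared in the fit called 11 and 7. In WGFT17 against JHU083, the minus strand had 1 gene higher and 1 lower of 8, with a median of -0.08, so most of its genes did not pass there, while the plus strand had 8 of 13 higher without mt-Tv. Nuclear genes under 200 bases long, 68 of them tested, had a median log2 change of 0.63 in WGFT17 against Control, with 12 higher and 7 lower, and those of 200 to 500 bases had a median of -0.50. Whether transcript length had a part in the tRNA values was not tested. The following tRNA genes carry the description below, because each is set against a neighbouring rRNA or mRNA gene or stands for its run of tRNA genes. They are shown 5′ to 3′ as annotated in GENCODE M21 transcripts (GRCm38), in DNA letters with the anticodon in capitals.
mt-Tf: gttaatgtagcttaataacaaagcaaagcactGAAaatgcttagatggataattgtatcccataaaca
mt-Tl1: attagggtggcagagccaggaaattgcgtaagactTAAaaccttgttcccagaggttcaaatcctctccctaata
mt-Ts1: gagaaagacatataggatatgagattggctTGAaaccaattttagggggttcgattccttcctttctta
mt-Tr: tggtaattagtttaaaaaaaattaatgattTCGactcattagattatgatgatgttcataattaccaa
mt-Th: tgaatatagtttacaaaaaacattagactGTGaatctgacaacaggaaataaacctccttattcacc
mt-Tn: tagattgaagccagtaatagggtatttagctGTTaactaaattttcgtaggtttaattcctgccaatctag
mt-Tf (chrM:1-68, plus strand) is the first gene of the precursor, directly before mt-Rnr1, and mt-Tl1 (chrM:2676-2750, plus) separates mt-Rnr2 from mt-Nd1. mt-Ts1 (chrM:6870-6938, minus) shares 3 bases with the end of mt-Co1 on the other strand, and mt-Tn (chrM:5089-5159, minus) lies in a run of minus-strand tRNA genes before mt-Co1. mt-Tr (chrM:9808-9875, plus) lies between mt-Nd3 and mt-Nd4l, and mt-Th (chrM:11546-11612, plus) follows mt-Nd4.

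Next to the rRNA genes, mt-Tl1, a tRNA for leucine and the most abundant plus-strand tRNA gene, had 198, 198 and 190.0 FPKM in WGFT17, 159, 151 and 176 FPKM in JHU083 and 202, 207 and 219 FPKM in Control. Each WGFT17 library was just below Control, and every JHU083 library was below both groups. mt-Tl1 did not pass in WGFT17 against Control (log2 -0.21, edgeR adjusted p = 0.0598) and was higher in WGFT17 than in JHU083 (log2 0.25 ± 0.09, adjusted p = 0.0384, held in 9 of 19 alternatives). Its neighbour mt-Rnr2 was 2.2-fold higher in WGFT17 than in Control, so the genes on either side of their boundary did not change alike. mt-Tf, for phenylalanine, had 2.52, 2.95 and 2.15 FPKM in WGFT17, 1.20, 0.860 and 0.750 FPKM in JHU083 and 1.78, 0.580 and 1.23 FPKM in Control. WGFT17 was above the other groups in every library, but the fitted change over Control did not pass (log2 0.91, edgeR adjusted p = 0.139). mt-Tv, for valine, lies between the rRNA genes and had 2.68, 3.07 and 2.65 FPKM in WGFT17, 0.730, 0.590 and 0.600 FPKM in JHU083 and 1.36, 0.840 and 0.500 FPKM in Control. It rested on about 11 read pairs in the 3 WGFT17 libraries and about 4 in the 3 Control libraries. Because mt-Tv reached the minimum for testing only through the WGFT17 libraries, its mean had to be higher there than over the other libraries. It was tested and its call enters the counts over all members and over the tRNA genes, but it is not read as a result here. The counts of called tRNA genes are also given without it.

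Around mt-Nd2, 3 tRNA genes rose in WGFT17. mt-Ti, for isoleucine, had 8.43, 7.88 and 8.41 FPKM in WGFT17, 4.09, 2.12 and 3.66 FPKM in JHU083 and 2.61, 5.36 and 3.97 FPKM in Control (log2 0.90 over Control, edgeR adjusted p = 0.0464, held in 7 of 19 alternatives). mt-Tm, for methionine, had 26.0, 27.3 and 27.2 FPKM in WGFT17, 15.5, 12.1 and 15.6 FPKM in JHU083 and 13.6, 11.8 and 12.8 FPKM in Control. For both genes WGFT17 lay above every other library. The ratio of mt-Ti to Control had an exact 95% interval, for counting error only, of 0.968 to 3.57, which included 1. mt-Tm was higher in WGFT17 than in Control (log2 0.96 ± 0.21, edgeR adjusted p = 0.00233) and under all 19 alternatives. mt-Tq, for glutamine, was the only minus-strand tRNA gene that rose in WGFT17 and shares 3 bases with mt-Ti on the other strand. It had 15.4, 15.7 and 14.4 FPKM in WGFT17, 7.51, 5.29 and 8.75 FPKM in JHU083 and 7.25, 8.06 and 7.35 FPKM in Control. WGFT17 did not overlap with the others, at log2 0.88 ± 0.26 over Control (edgeR adjusted p = 0.0129) and 1.05 ± 0.26 over JHU083 (adjusted p = 0.00693).

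Further along the plus strand, mt-Tk, for lysine, had 14.0, 14.0 and 14.3 FPKM in WGFT17, 8.29, 6.94 and 7.88 FPKM in JHU083 and 7.13, 8.63 and 8.95 FPKM in Control (log2 0.66 over Control, edgeR adjusted p = 0.0354, held in 7 of 19 alternatives). mt-Tg, for glycine, had 8.92, 14.4 and 9.80 FPKM in WGFT17, 5.16, 3.80 and 8.10 FPKM in JHU083 and 5.08, 3.89 and 6.73 FPKM in Control (log2 0.94 over Control, adjusted p = 0.0449, held in 9 of 19). Both genes were higher in every WGFT17 library than in any other. The exact 95% interval of the ratio to Control, for counting error only, was 0.978 to 2.56 for mt-Tk and 1.11 to 3.48 for mt-Tg. mt-Tr, for arginine, had 9.24, 10.8 and 9.39 FPKM in WGFT17, 5.45, 5.27 and 3.11 FPKM in JHU083 and 2.59, 4.62 and 2.85 FPKM in Control. Its WGFT17 libraries stood apart from both groups, although mt-Nd3 just before it fell. mt-Tr rose by log2 1.38 ± 0.34 over Control (edgeR adjusted p = 0.00469) and by 1.06 ± 0.33 over JHU083 (adjusted p = 0.0225, or 0.0652 without WGFT17 replicate 2).

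After mt-Nd4 come 3 tRNA genes in a row, mt-Th for histidine, mt-Ts2 for serine and mt-Tl2 for leucine, all with few reads. mt-Th and mt-Ts2 had the highest fitted changes of the members in WGFT17 against Control. mt-Th had 5.03, 5.81 and 6.68 FPKM in WGFT17, 2.86, 1.56 and 2.31 FPKM in JHU083 and 0.500, 1.70 and 0.490 FPKM in Control. WGFT17 was highest throughout, and JHU083 and Control overlapped. About 22 read pairs in the 3 WGFT17 libraries stood against about 4 in the 3 Control libraries, a ratio of 5.18 per depth with an exact 95% interval of 1.76 to 20.7 that covers counting error only. mt-Th was higher in WGFT17 than in Control (log2 2.39 ± 0.48, edgeR adjusted p = 0.00133) and than in JHU083 (log2 1.31 ± 0.43, adjusted p = 0.0287, held in 12 of 18 alternatives). mt-Ts2 had 3.23, 3.83 and 3.74 FPKM in WGFT17, 3.05, 1.00 and 2.12 FPKM in JHU083 and 0.360, 0.990 and 0.120 FPKM in Control. Every WGFT17 library was above every JHU083 library, and these were above every Control library, on about 12, 6 and 2 read pairs. Neither step with JHU083 passed edgeR's test, at adjusted p = 0.259 for WGFT17 against JHU083 and 0.0879 for JHU083 against Control. With about 12 read pairs in WGFT17 against about 2 in Control, the ratio was 5.65 with an interval of 1.26 to 52.0 (log2 2.39, edgeR adjusted p = 0.00552). mt-Tl2 had 5.89, 4.98 and 7.07 FPKM in WGFT17, 5.01, 3.38 and 3.57 FPKM in JHU083 and 2.46, 3.41 and 2.44 FPKM in Control (log2 1.00 over Control, adjusted p = 0.0254, held in 9 of 18 alternatives). Its interval was 0.922 to 4.47, on about 23 read pairs in WGFT17 and about 11 in Control.

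The remaining plus-strand tRNA genes did not pass in WGFT17 against Control. mt-Tw, for tryptophan, had 29.7, 28.0 and 27.8 FPKM in WGFT17, 15.9, 11.9 and 22.2 FPKM in JHU083 and 27.9, 24.7 and 29.8 FPKM in Control. mt-Tt, for threonine, had 24.7, 22.2 and 18.2 FPKM in WGFT17, 8.54, 7.42 and 9.79 FPKM in JHU083 and 12.2, 13.6 and 15.1 FPKM in Control. In both genes JHU083 was the lowest group. Against JHU083, WGFT17 was higher for mt-Tw (log2 0.76 ± 0.25, edgeR adjusted p = 0.0272, held in 12 of 19 alternatives) and for mt-Tt (log2 1.32 ± 0.24, adjusted p = 0.00093). mt-Td, for aspartate, had 1.68, 1.83 and 1.83 FPKM in WGFT17, 1.59, 1.08 and 2.24 FPKM in JHU083 and 1.37, 2.08 and 1.61 FPKM in Control, where the groups overlapped in every comparison.

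On the minus strand, mt-Ts1, a second tRNA for serine, had 192, 193 and 163 FPKM in WGFT17, 314, 311 and 403 FPKM in JHU083 and 366, 356 and 359 FPKM in Control. WGFT17 was below every other library, as it was for mt-Co1 on the opposite strand. mt-Ts1 fell in WGFT17 by log2 1.09 ± 0.11 against Control (edgeR adjusted p = 1.01e-05) and by 0.92 ± 0.11 against JHU083 (adjusted p = 4.81e-05), and it was lower under all 19 alternatives of both comparisons. Whether its reads came from the minus strand was not tested, since the table holds no strand of reads.

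Of the run of 4 minus-strand tRNA genes before mt-Co1, 3 were lower in WGFT17 than in Control. mt-Ta, for alanine, had 62.6, 64.1 and 50.4 FPKM in WGFT17, 58.7, 53.0 and 73.6 FPKM in JHU083 and 80.7, 87.7 and 94.2 FPKM in Control. mt-Tn, for asparagine, had 63.4, 63.0 and 48.3 FPKM in WGFT17, 63.2, 59.8 and 79.6 FPKM in JHU083 and 84.7, 93.4 and 103 FPKM in Control. Both genes were below Control in every WGFT17 and JHU083 library, and JHU083 replicate 3 was the closest to Control. Against Control, mt-Ta fell in WGFT17 by log2 0.68 ± 0.17 (edgeR adjusted p = 0.00525) and mt-Tn by 0.79 ± 0.17 (adjusted p = 0.002). mt-Tc, for cysteine, had 34.5, 31.4 and 32.01 FPKM in WGFT17, 28.1, 26.8 and 46.6 FPKM in JHU083 and 46.3, 50.8 and 56.8 FPKM in Control (log2 -0.76 in WGFT17 against Control, edgeR adjusted p = 0.0146, or 0.0556 without Control replicate 3). mt-Ty, for tyrosine, had 43.2, 47.0 and 38.6 FPKM in WGFT17, 27.7, 23.1 and 43.2 FPKM in JHU083 and 37.9, 45.0 and 46.9 FPKM in Control, with no difference past the test in any comparison of all libraries. Without JHU083 replicate 3, mt-Ty was higher in WGFT17 than in JHU083 (log2 0.75, edgeR adjusted p = 0.00941) and lower in JHU083 than in Control (log2 -0.87, adjusted p = 0.00819). With the term for photoreceptor transcripts, mt-Ta (-0.27), mt-Tn (-0.41) and mt-Tc (0.01) no longer passed in WGFT17 against Control.

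Beyond mt-Nd5, mt-Te, for glutamate, had 117, 118 and 106 FPKM in WGFT17, 88.4, 80.5 and 179.9 FPKM in JHU083 and 149, 158 and 163 FPKM in Control. WGFT17 was below Control in every library, but JHU083 replicate 3 was the highest of all and replicates 1 and 2 the lowest. mt-Te did not pass in WGFT17 against Control (log2 -0.57, edgeR adjusted p = 0.0711) or JHU083 (log2 -0.05, adjusted p = 0.899), and without JHU083 replicate 3 it was higher in WGFT17 than in JHU083 (log2 0.42, adjusted p = 0.0116). mt-Tp, for proline, had 98.6, 108 and 88.8 FPKM in WGFT17, 112, 108 and 103 FPKM in JHU083 and 114, 116 and 121 FPKM in Control. Its 3 groups lay close together, with WGFT17 and JHU083 below Control. mt-Tp was lower in WGFT17 than in Control (log2 -0.36 ± 0.11, edgeR adjusted p = 0.018). The call was lost without WGFT17 replicate 3 (adjusted p = 0.0735), without Control replicate 3 (adjusted p = 0.0624) and with the term for photoreceptor transcripts (log2 -0.43, edgeR adjusted p = 0.106).

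**Figure D5:**
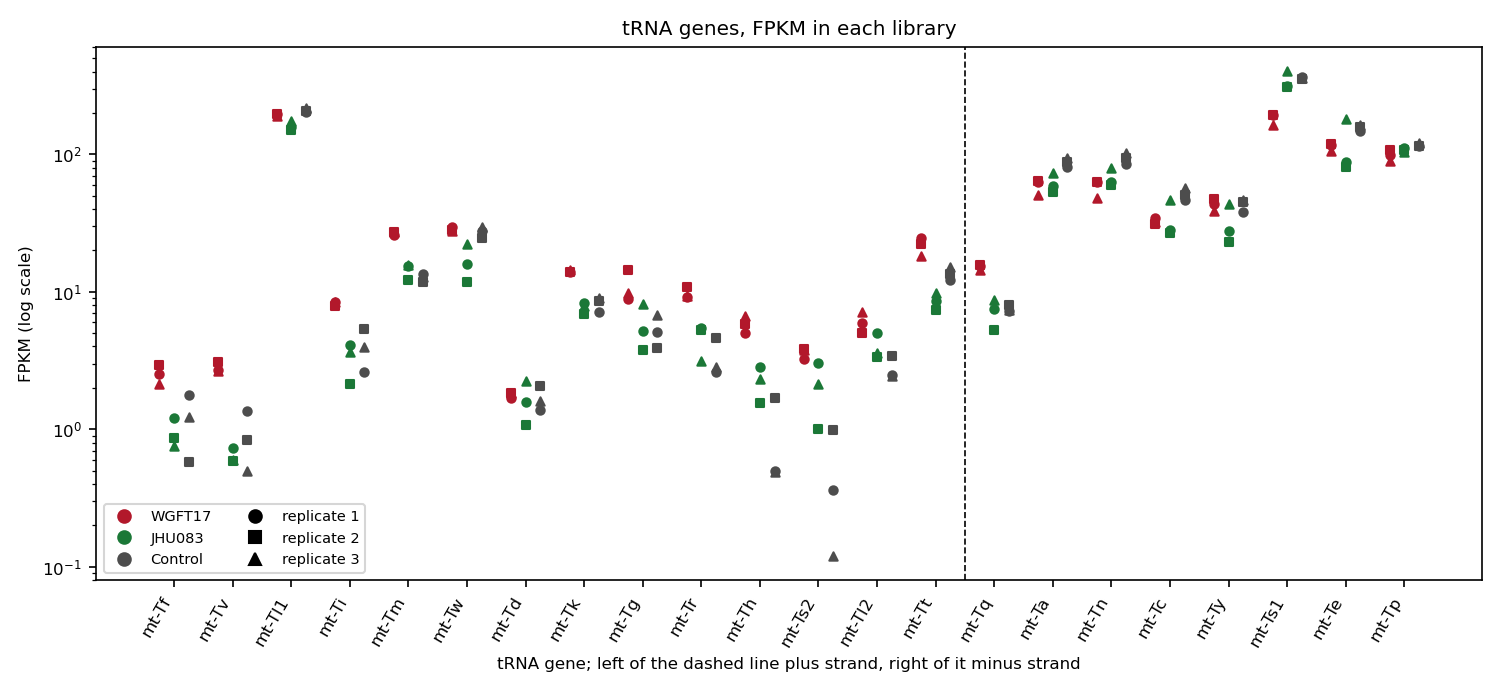
FPKM on a log scale of the 22 tRNA genes in each library, with the 14 plus-strand genes left of the dashed line and the 8 minus-strand genes right of it, for WGFT17, JHU083 and Control with a symbol per replicate. WGFT17 symbols lie above the others for most plus-strand genes and for mt-Tq, and below Control for mt-Ta, mt-Tn, mt-Tc and mt-Ts1.

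In JHU083 against Control the 6 lower members were mt-Nd3 and the tRNA genes mt-Tl1, mt-Tw, mt-Ta, mt-Tn and mt-Tt, and their number moved more with the choice of libraries than that of the other comparisons. mt-Tl1 fell by log2 0.47 ± 0.09 (edgeR adjusted p = 0.00524) and was lower under all 19 alternatives. The others were called lower in 6 to 12 of 19 alternatives, at log2 -0.82 for mt-Tw (edgeR adjusted p = 0.0348), -0.76 for mt-Tt (adjusted p = 0.0435), -0.59 for mt-Ta (adjusted p = 0.0271) and -0.57 for mt-Tn (adjusted p = 0.0325). Without JHU083 replicate 3, 20 members were lower and none was higher, namely 10 protein-coding genes, mt-Rnr2 and 9 tRNA genes, where 31.6% of all tested genes were called. The protein-coding changes then ran to -1.41 for mt-Nd3, -0.65 for mt-Nd6 and -0.56 for mt-Atp6, while mt-Atp8 (0.01), mt-Nd4l (0.06) and mt-Nd5 (-0.13) did not pass. Leaving out JHU083 replicate 1 or 2 gave 1 and 2 called members, and leaving out Control replicate 1, 2 or 3 gave 4, 1 and 1. Calls over all tested genes also fell, from 2831 with all libraries. They numbered 2446 and 2035 without JHU083 replicate 1 or 2, and 2294, 1533 and 1565 without Control replicate 1, 2 or 3. With the term for photoreceptor transcripts, 4 members were higher and 1 was lower, where 26.6% of all tested genes were called.

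Nuclear genes that act on mitochondrial DNA and RNA or regulate mitochondrial biogenesis were taken as 5 lists. Without a term for photoreceptor transcripts, more genes of each list were called higher than lower in WGFT17 against Control. Of all tested genes, 28% were higher and 30% lower in that comparison, with a median of 0.00. Of 7 tested genes of mitochondrial transcription, 3 were higher in WGFT17 than in Control and 1 was lower, with a median log2 change of 0.28. The polymerase Polrmt (log2 0.28, edgeR adjusted p = 0.179) and the packaging and transcription factor Tfam (log2 -0.03, adjusted p = 0.854) did not pass. Higher were Tfb2m, which opens the promoter (log2 0.41 ± 0.12, edgeR adjusted p = 0.0107), Mterf3 (0.45 ± 0.13, adjusted p = 0.0108) and Mterf4 (0.35 ± 0.14, adjusted p = 0.0452), both of the transcription termination factor family and bound to mitochondrial nucleic acids. Mrpl12, a protein of the large mitochondrial ribosomal subunit that also binds the polymerase, was lower (log2 -0.49 ± 0.07, edgeR adjusted p = 0.000151). In WGFT17 against JHU083, 1 of the 7 was higher and 1 was lower, where 20.4% of all tested genes were higher and 24.4% lower, and in JHU083 against Control 1 of the 7 was lower, where 12.5% were.

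Of 22 tested genes of mitochondrial RNA processing and decay, 9 were higher and 5 lower in WGFT17 than in Control, with a median of 0.18, and 9 were higher and 1 was lower against JHU083, where 20.4% of all tested genes were higher. Lrpprc, which binds and stabilises mitochondrial mRNAs, averaged 9.31 ± 0.356 FPKM in WGFT17, 5.38 ± 0.522 in JHU083 and 5.23 ± 0.155 in Control (SD, n = 3 each). It rose by log2 0.72 ± 0.07 over Control (edgeR adjusted p = 7.53e-06) and by 0.78 ± 0.07 over JHU083 (adjusted p = 5.56e-06). Slirp, the partner of Lrpprc in that complex, went the other way and was lower in WGFT17 than in Control (log2 -0.69 ± 0.20, edgeR adjusted p = 0.0103). Trmt10c, a subunit of mitochondrial RNase P, was higher (log2 0.66 ± 0.13, edgeR adjusted p = 0.00154), while its partner Hsd17b10 did not pass (-0.10, adjusted p = 0.214) and Elac2, which cuts the other end of tRNAs, was lower (-0.27 ± 0.08, adjusted p = 0.0138). The poly(A) polymerase Mtpap (log2 0.10, edgeR adjusted p = 0.39), the exoribonuclease Pnpt1 (0.24, adjusted p = 0.139) and its helicase Supv3l1 (-0.03, adjusted p = 0.793) did not pass. Fastkd1, of a family of mitochondrial RNA-binding proteins (0.66 ± 0.12, edgeR adjusted p = 0.000891), and the deadenylase Pde12 (0.37 ± 0.07, adjusted p = 0.00124) were also higher. In JHU083 against Control edgeR called none of the 22 higher (1 at an unadjusted p under 0.05) and 3 lower, where 12.5% of all tested genes were lower. The 3 were Hsd17b10 (log2 -0.30, edgeR adjusted p = 0.0106), the oligoribonuclease Rexo2 (-0.25, adjusted p = 0.0109) and Tbrg4 (-0.28, adjusted p = 0.0182).

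Of 19 tested genes of mitochondrial rRNA and tRNA modification, 7 were higher in WGFT17 than in Control and 8 than in JHU083, with a median of 0.24 against Control. None of the 19 was lower in either comparison by edgeR, adjusted or at an unadjusted p under 0.05. They were led by Nsun3, a methyltransferase of the methionine tRNA (log2 0.56 ± 0.10 over Control, edgeR adjusted p = 0.00058), and by Mrm1, a methyltransferase of mt-Rnr2 (0.54 ± 0.11, adjusted p = 0.00121). None of the 19 passed edgeR's test in JHU083 against Control, and 1 was higher at an unadjusted p under 0.05. Of 17 tested genes of mitochondrial DNA maintenance, 6 were higher and 2 lower in WGFT17 than in Control. The polymerase Polg (log2 0.30 ± 0.06, edgeR adjusted p = 0.00109) and the helicase Twnk (0.37 ± 0.13, adjusted p = 0.0258) were higher, and the nuclease and helicase Dna2, which also acts in the nucleus, was lower (-1.25 ± 0.12, adjusted p = 3.89e-06). Of the 17, 1 passed in JHU083 against Control, Lig3, a DNA ligase (log2 -0.34, edgeR adjusted p = 0.0274). Of 6 tested regulators of mitochondrial biogenesis, Esrra (log2 0.59 ± 0.12, edgeR adjusted p = 0.00115) and Pprc1 (0.23 ± 0.05, adjusted p = 0.00309), both transcriptional regulators, were higher in WGFT17 than in Control. With the term for photoreceptor transcripts, the higher counts against Control were 2 of 7, 6 of 22, 2 of 19, 2 of 17 and 0 of 6 for these lists in the order given. The lower counts were 2, 0, 0, 1 and 0, where 44% of all tested genes were called in either direction. Higher genes then no longer outnumbered lower ones in the lists of transcription and of biogenesis regulators.

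Most of the nuclear-encoded partners of the mitochondrial proteins were lower in both drug groups than in Control in the fit without a term for photoreceptor transcripts. Of 71 tested nuclear subunits of complexes I, III and IV and ATP synthase, 1 was higher and 52 were lower in WGFT17 than in Control, with a median log2 change of -0.35, where 30% of all tested genes were lower. In JHU083 against Control edgeR called none higher (1 at an unadjusted p under 0.05) and 50 lower, again with a median of -0.35, where 12.5% of all tested genes were lower. Against JHU083, 4 were higher and 12 lower in WGFT17, with a median of -0.04, where 20.4% of all tested genes were higher and 24.4% lower. The mitochondrially encoded mRNAs had 1 higher and 9 lower of 13 and a median of -0.64. Complex IV had all 11 nuclear subunits lower in WGFT17 than in Control, among them Ndufa4 (log2 -0.83 ± 0.08, edgeR adjusted p = 5.66e-06) and Cox6b1 (-0.79 ± 0.10, adjusted p = 6.45e-05). JHU083 against Control had 9 of the 11 lower. Of the 36 nuclear subunits of complex I, 23 were lower in WGFT17 and 25 in JHU083 than in Control, with the smallest adjusted p in WGFT17 for Ndufb11 (log2 -0.76 ± 0.08, edgeR adjusted p = 1.15e-05) and Ndufa11 (-0.67 ± 0.08, adjusted p = 1.77e-05). Uqcrh of complex III (log2 -1.23 ± 0.12, edgeR adjusted p = 4.58e-06) and Atp5o of ATP synthase (-0.48 ± 0.04, adjusted p = 3.97e-06) had the smallest p of their complexes. Complex II, which has no mitochondrially encoded subunit, had 1 of 4 genes lower in WGFT17 than in Control, Sdhc (log2 -0.13 ± 0.04, edgeR adjusted p = 0.0226).

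Nuclear genes of 200 to 1000 bases also had medians below 0 in both drug groups against Control. Tested nuclear genes of 200 to 500 bases had a median log2 change of -0.50 in WGFT17 against Control and -0.37 in JHU083 against Control, and those of 500 to 1000 bases had -0.32 and -0.28. Genes of at least 2000 bases had medians of 0.06 in WGFT17 and 0.04 in JHU083. The part of transcript length in the counts of nuclear subunits was not tested. With the term for photoreceptor transcripts the lower nuclear subunits numbered 29 of 71 in WGFT17 and 34 of 71 in JHU083 against Control, no longer most of them. In that fit 44% of all tested genes in WGFT17 and 26.6% in JHU083 were called against Control in either direction. Without JHU083 replicate 3 the lower nuclear subunits numbered 57 in both. In that fit 31.6% of all tested genes were called in JHU083 against Control, and the share in WGFT17 against Control was not taken.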

How the data were processed

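RNA of 9 libraries in 3 groups of 3 was measured by paired-end sequencing of poly(A)-selected RNA. Per the file headers, the deposited table gives estimated counts and FPKM for each gene and library. Per the submitters' processing notes, the tools were StringTie 2.1.6, HISAT2 2.2.1, cutadapt 1.9, edgeR and DESeq2, and the build named is mm9, while their roles and settings are not given in the sources used here. Coordinates in the table equal GRCm38 (GENCODE M21) for all 37 members and for 90.3% of the 28926 genes matched, so GRCm38 is used here.

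The estimated counts come in steps of about 4 per read pair. They were rounded, and genes whose FPKM averaged 1 or more over the libraries entered the test. All 9 libraries were fitted together with edgeR 4.0.16 (R 4.3.3; TMM scaling, quasi-likelihood test, group as the only factor), with Benjamini-Hochberg adjustment over the 11798 genes tested. FPKM values, as deposited, are used for levels. Class sums, ratios and marker sums carry no test. Exact 95% intervals for low tRNA genes cover counting error only.

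Named genes are all 37 members, with values in every library, and from each pathway list up to 4 genes with the smallest adjusted p in a comparison, of which some are printed, plus fixed factors of transcription, RNA processing and DNA replication. The members, lists and tests were chosen with earlier results of these data known. Alternatives were other scalings and minimums, DESeq2 1.42.0, limma 3.58.1, counts divided by 4, a replicate block, a term for libraries with photoreceptor transcripts, and each library left out. Those for the pathway lists were added after seeing the data. The script that fits the genes was tested on simulated data.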

Additional observations from a re-analysis of the deposited data

How the results depend on the processing

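Members called in WGFT17 against Control numbered 28, and 21 to 32 under the alternatives other than the term for photoreceptor transcripts, which gave 15. In WGFT17 against JHU083 they numbered 23, and 18 to 26 under all alternatives except no minimum FPKM, which gave 15. The 28 and the 23 include mt-Tv, which reached the minimum for testing only through the WGFT17 libraries. In JHU083 against Control they numbered 6, but 1 with no minimum FPKM, 1 with only the groups compared in the fit, 10 with limma at either pseudocount, and between 1 and 20 with a library left out. Of all tested genes, 1891 of 28998 were called with no minimum FPKM and 2018 of 11860 with only the groups compared. With the term for photoreceptor transcripts the log2 changes turned in direction to 0.24 for mt-Nd4 and 0.35 for mt-Nd6 in JHU083 against Control, to 0.27 for mt-Nd1, 0.0092 for mt-Tc, 0.14 for mt-Nd4 and 0.53 for mt-Te in WGFT17 against Control, and to 0.20 for mt-Nd1 and 0.42 for mt-Te in WGFT17 against JHU083. With a library left out, WGFT17 against JHU083 ranged from -0.10 to 0.20 for mt-Nd1 and from -0.25 to 0.42 for mt-Te, the upper end in each case without JHU083 replicate 3. The log2 difference in the protein-coding share was -0.59 from summed FPKM in WGFT17 against Control, and ranged from -0.25 to 0.0017 in JHU083 against Control with a library left out. The causes were not tested. The ratios of rRNA and tRNA to protein-coding counts kept their direction in all alternatives run. After the mean of each group was subtracted from log2 CPM, same-numbered replicates of different groups correlated at -0.0338 to 0.161. Differently numbered replicates were not compared, so these values do not decide whether the numbers pair the libraries. A replicate block gave 23 calls in WGFT17 against Control, 20 in WGFT17 against JHU083 and 4 in JHU083 against Control. Of the 11798 genes tested, it called 6530, 4907 and 2330 in these comparisons. Depth limits the tRNA genes below about 5 FPKM, which rest on few read pairs.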
